A study of Homo sapiens with 34 samples.

Results

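RBPJ bound 3652 promoter sites in MB157 cells that were also called in every other RBPJ peak list of the study, and these constant promoter sites are described here. They were chosen by their RBPJ peaks: each is the summit of an RBPJ peak of MB157 iEV on chromosomes 1 to 22 and X, with an RBPJ summit less than 500 bp away in the MB157 iSOX2 list and in both lists of MB157R (iEV and iN1-ICD). Each also lies within 1 kb of the 5′ end (transcription start site, TSS) of a GENCODE protein-coding gene. MB157 iEV had 25243 RBPJ summits, 7338 of them at such promoters, so that 49.8% of its promoter summits were constant (95% exact binomial interval 48.6 to 50.9). Of all its summits 31.4% were constant, and of the distal ones 23.9%. Had the start of any protein-coding transcript been accepted as a TSS, there would have been 4582 constant promoter sites, and 961 of the 4273 constant distal sites used below for comparison lay within 1 kb of such a start.

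RBPJ is the DNA-binding partner of the NOTCH intracellular domain. After ligand binding, γ-secretase cuts the NOTCH receptor, its intracellular domain enters the nucleus and joins RBPJ and a Mastermind protein, and target genes such as those of the HES and HEY families are turned on. Without NOTCH, RBPJ can stay on DNA together with co-repressors. SOX2 belongs to the HMG box factors, maintains stem cells and recognizes short A/T-rich sequences.

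Chromatin immunoprecipitation and sequencing (ChIP-seq) had been done in MB157, a line of triple-negative breast cancer (TNBC) whose growth depends on NOTCH, and in MB157R, its derivative resistant to a γ-secretase inhibitor (GSI) after 25 weeks of culture at 1 µM. MB157 carries a rearranged NOTCH1 gene whose product is active without ligand. All cells carried a doxycycline-inducible vector and had received 1 µg/ml doxycycline for 72 h. The vector was empty in the iEV cells of both lines and expressed SOX2 with an HA tag in MB157 iSOX2. In MB157R iN1-ICD it expressed NOTCH1 without the extracellular domain, which the paper calls N1-ICD. The libraries of a group (3, or 1 for the HA control of MB157 iEV) had been pooled before peaks were called. Each condition is thus 1 list, without a spread between replicates against which a difference could be set. Fold enrichment, the authors' value for the signal at a summit over the local input background, is therefore given as a description, and all intervals and tests refer to sites within pooled lists and cover counting error only. The 4 RBPJ lists differed in depth, from 1.604 (MB157 iEV) to 2.04 (MB157 iSOX2) fragments expected at any position of the genome, and in length, from 25243 to 46601 peaks. Unless stated otherwise, RBPJ folds are given in the order MB157 iEV and iSOX2, then MB157R iEV and iN1-ICD.

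The DNA under the strongest sites is shown first, because it holds the letters on which several of the comparisons below turn. The RBPJ motif was searched on both strands as CGTGGGAA, CGTGAGAA, TGTGGGAA or TGTGAGAA. Of the 10 promoters with the highest RBPJ fold in all 4 lists, 7 had the motif within 100 bp of the summit. They are printed 5′ to 3′ on the strand on which the motif reads in that way, with the motif in capitals, from hg38. Where the motif lies in an annotated exon, 30 bases are shown.
NAPG (chr18:10526007-10526036, minus strand, exon): gcccaaataggCGTGGGAAcgccgaggagg
CCDC102B (chr18:68715248-68715277, plus strand, exon): acgcccaggagCGTGGGAAccctgcttaag
DDX39B (chr6:31542355-31542384, minus strand, exon): gccaaggacccCGTGGGAActcgcagcctt
HES4 (chr1:1000157-1000186, minus strand, exon): gctggggcgagTGTGGGAAagaatgcggag
RASEF (chr9:83063204-83063324, minus strand): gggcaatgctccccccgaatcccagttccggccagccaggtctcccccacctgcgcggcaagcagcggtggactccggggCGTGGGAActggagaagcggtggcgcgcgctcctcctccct
RPL39 (chrX:119791705-119791825, plus strand): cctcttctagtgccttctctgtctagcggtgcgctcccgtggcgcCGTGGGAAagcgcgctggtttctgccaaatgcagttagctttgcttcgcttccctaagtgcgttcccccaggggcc
NANOS3 (chr19:13861914-13862034, minus strand): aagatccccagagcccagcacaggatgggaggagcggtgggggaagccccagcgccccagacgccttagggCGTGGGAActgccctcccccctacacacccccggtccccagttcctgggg
The motif lay between 1 bp (NAPG) and 23 bp (RASEF) from the summit of MB157 iEV. Of these 7 sites, 6 held the form CGTGGGAA and HES4 held TGTGGGAA.

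The constant promoter sites lay next to 3591 genes, of which 3530 had 1 site and 61 had 2. Most were moderate peaks. Their RBPJ fold had a median of 5.58 (quartiles 4.48 and 7.40) in the list of MB157 iEV and 5.89 (4.61 and 8.01) in that of iSOX2, against 8.03 (6.11 and 10.9) and 5.66 (4.49 and 7.63) in those of MB157R iEV and iN1-ICD. The curve of MB157R iEV thus lay to the right of the others, and 2374 of the 3652 sites had their highest fold in that list. The summits rested on medians of 18, 25, 30 and 19 fragments, in the same order. At the median site, the highest of the 4 folds was 1.84 times the lowest, and it was 3.00 times the lowest at the 95th percentile. Few promoters were strongly bound throughout, as 239 sites had a fold of at least 10 in all 4 lists, 38 of at least 20 and 4 of at least 40.

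**Figure D1:**
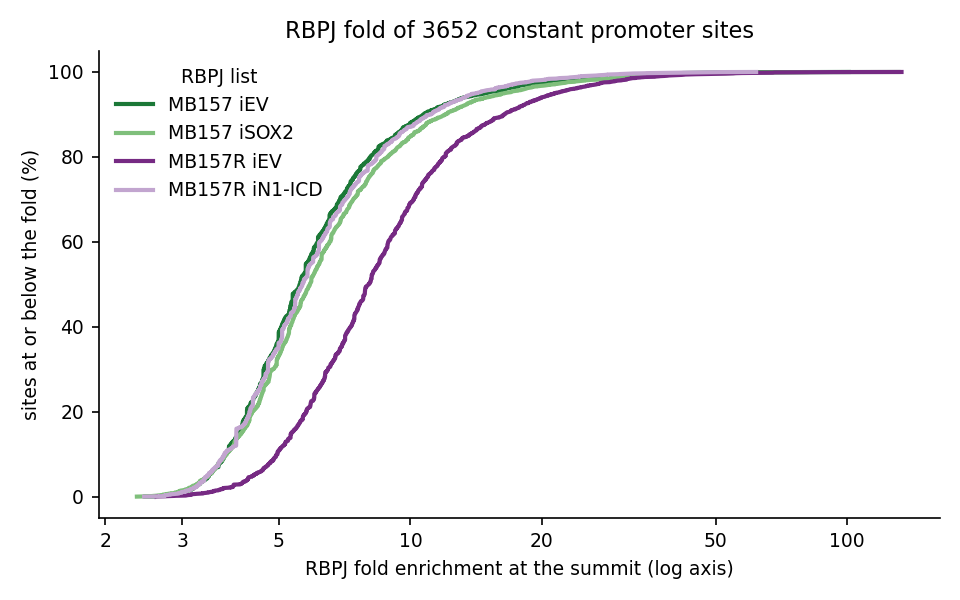
Cumulative share of the 3652 constant promoter sites (y axis, %) at or below a given RBPJ fold enrichment at the summit (x axis, log scale), 1 curve for each of the 4 pooled RBPJ lists. The curve of MB157R iEV lies to the right of the other 3 (median 8.03 against 5.58, 5.89 and 5.66).

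Constancy went with the strength of a peak, which the rule itself uses through the 4 peak calls. Among the promoter summits of MB157 iEV, 32.6% of the 1468 with a fold of 3 to 4 were constant, 54.8% of the 2145 with a fold of 5 to 7 and 93.9% of the 98 with a fold of 20 or more. The 3686 other promoter sites had a median fold of 4.58 in MB157 iEV and a median width of 434 bp, whereas the constant sites had a median width of 597 bp. Of these other sites, 1809 were missing from 1 list only, and the list of MB157R iN1-ICD was the missing one for 995 of them. The summits of the other lists lay close to those of MB157 iEV, at median distances of 70 bp (MB157 iSOX2), 73 bp (MB157R iEV) and 71.5 bp (MB157R iN1-ICD). At the limits of the rule, the promoter of PMM1 was included with its MB157 iSOX2 summit 499 bp away, while RBBP4 was left out at 500 bp, although its RBPJ folds of 3.95, 7.30, 7.88 and 5.18 were similar to the 5.38, 5.60, 6.71 and 6.90 of PMM1. Likewise, a site 998 bp downstream of the TSS of SPPL3 was included, and one 1001 bp downstream of that of EEF1A2 counted as distal.

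The promoter with the highest RBPJ fold was that of GTF2H4, whose product is part of TFIIH, a general factor of transcription and repair (chromosome 6, peak 30907732 to 30908476, summit 70 bp upstream of the TSS). Its fold was 101 and 131 in MB157 iEV and iSOX2 and 133 and 61.9 in MB157R iEV and iN1-ICD. It was high in every list, and it held none of the 4 forms of the RBPJ motif within 100 bp. NAPG, which encodes a SNAP protein of vesicle fusion (chromosome 18, 10525749 to 10526610), had folds of 41.1, 44.4, 92.5 and 51.5 in the same order. CCDC102B, a coiled-coil protein (chromosome 18, 68714577 to 68715575), had 47.6, 60.3, 77.6 and 46.4. In both, MB157R iEV stood above the other 3 lists. RPL39, a protein of the large ribosomal subunit (chromosome X, 119791029 to 119792534), went the other way, with 69.2, 81.3, 68.0 and 31.9, so that only MB157R iN1-ICD was lower. The remaining 6 promoters of the 10 were those of IL1RAP (interleukin 1 receptor accessory protein), DDX39B (an RNA helicase of mRNA export), HES4, RASEF (a RAB-like GTPase), POM121 (a nuclear pore protein with near-identical copies on the same chromosome, whose reads may not be told apart) and NANOS3 (an RNA-binding protein of germ cells). Their folds ranged from 30.3 (NANOS3 in MB157 iSOX2) to 75.8 (POM121 in MB157R iEV).

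Of 15 NOTCH target genes, 7 (46.7%) had a constant site within 1 kb of the TSS, beside 4223 of all 19962 protein-coding genes (21.2%). Among genes with an RBPJ summit of MB157 iEV within 1 kb, this was 7 of 10 target genes, beside 4223 of all 7578. The 7 genes were HES4, HES5, HES6, HEY1, MYC, CCND1 and NOTCH3, and they did not share a pattern across the lists. HES4, a transcriptional repressor of the HES family (chromosome 1, 1000015 to 1000967, summit 19 bp downstream of the TSS), had RBPJ folds of 41.5 (MB157 iEV), 36.3 (iSOX2), 54.8 (MB157R iEV) and 46.4 (iN1-ICD). It was thus occupied at a similar level in both lines, with 107, 114, 178 and 157 fragments at the summit. HEY1, a repressor of the related HEY family (chromosome 8, summit 55 bp downstream), had folds of 38.5 and 41.9 in MB157 iEV and iSOX2 but 21.97 and 13.8 in MB157R iEV and iN1-ICD. The summits held 149 and 227 fragments in MB157 and 61 and 37 in MB157R. HEY1 thus had its lower values in both lists of the resistant line, whereas HES4 did not. The expected background on chromosome 8 was 3.33 in MB157 iEV and 2.30 in MB157R iEV. Other strong constant sites of this chromosome were also lower in MB157R iEV than in MB157 iEV. They lay near EIF3E (26.6, 25.5, 21.4 and 12.25), CYC1 (38.6, 35.05, 31.9 and 13.4) and MRPL15 (13.96, 9.91, 10.5 and 6.65). The site near COX6C hardly differed (14.6 and 14.9 in the iEV lists). Weaker sites were higher in MB157R iEV, near EIF3H (3.02, 2.56, 5.67 and 3.82), NDUFB9 (4.65 and 7.08 in the iEV lists) and EIF4EBP1 (5.95 and 8.18). Whether the lower values are particular to HEY1 was not tested. MYC, a driver of cell growth (chromosome 8, summit 546 bp downstream), had 11.97, 13.3, 11.8 and 8.78.

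**Figure D2:**
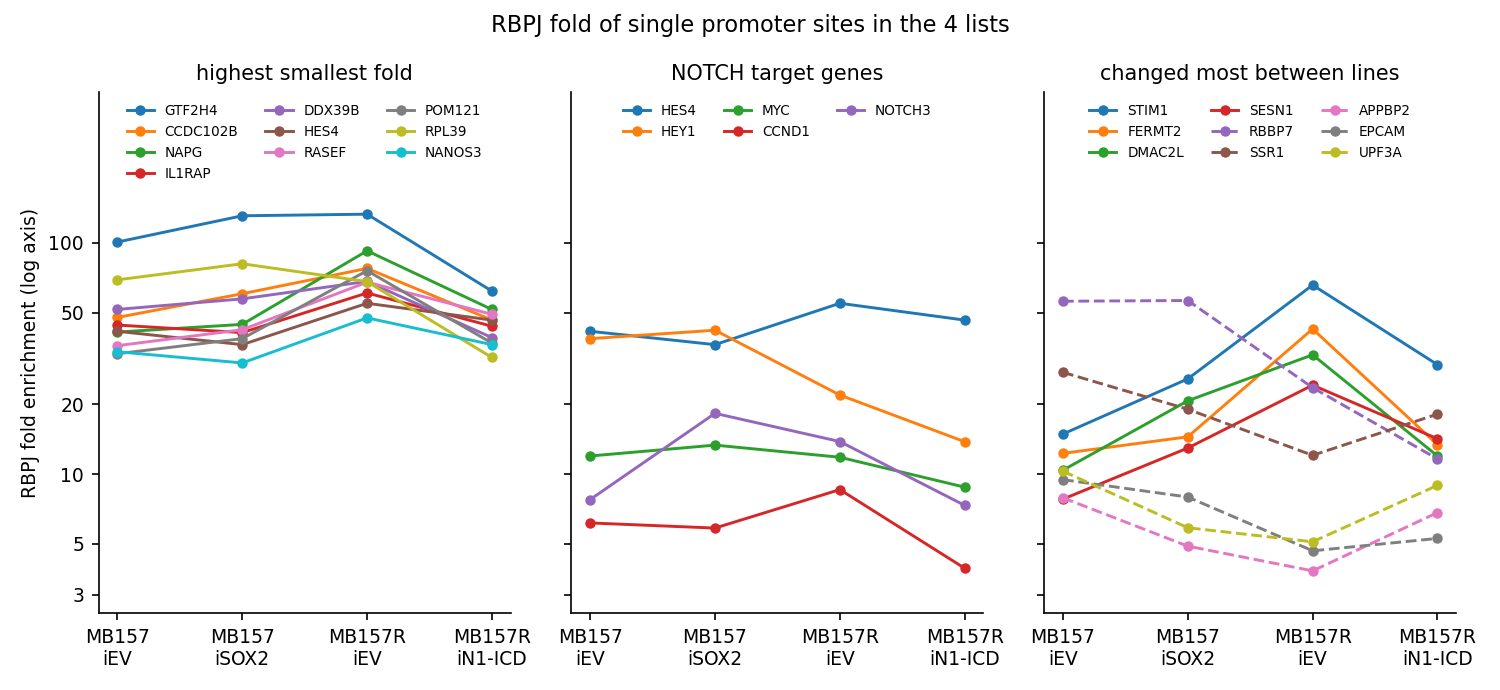
RBPJ fold enrichment (y axis, log scale) of single constant promoter sites in the 4 pooled lists (x axis), with 1 point per list and no error bars because each list is 1 value. Left, the 10 sites with the highest smallest fold; middle, the NOTCH target genes HES4, HEY1, MYC, CCND1 and NOTCH3; right, sites that differed most between MB157R iEV and MB157 iEV (dashed, lower in MB157R iEV). HES4 lies between 36.3 and 54.8, whereas HEY1 lies at 38.5 in MB157 iEV and at 13.8 in MB157R iN1-ICD.

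NOTCH3, a receptor that is itself a NOTCH target (chromosome 19, 15200220 to 15200678, summit 672 bp downstream of the TSS), had RBPJ folds of 7.76, 18.3, 13.8 and 7.32. CCND1, the cyclin D1 gene (chromosome 11, 69640404 to 69641800), was among the weaker sites with 6.14, 5.84, 8.56 and 3.91. HES5 and HES6, repressors of the HES family, had lowest folds of 5.27 and 3.84. The CCND1 site was no longer counted when summits had to be 100 bp apart or less or when every list was limited to a −log10 q of at least 5, and the MYC and NOTCH3 sites were not counted when promoters were limited to 0.5 kb.

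Several well-known NOTCH genes were not among the constant promoter sites but had a constant RBPJ site farther than 1 kb from the TSS. Summits within 5 kb of the TSS, a window chosen after the values were seen, showed a site common to all 4 lists at HES1, HEY2, NRARP, NOTCH1 and JAG1. At HES1, a repressor of the HES family, the peak of MB157 iEV spanned the TSS (chromosome 3, 194134427 to 194137830), but its summit lay 1234 bp upstream, and the RBPJ folds were 49.9, 38.4, 39.4 and 23.9. HEY2, a repressor of the HEY family, had folds of 34.1, 66.8, 50.5 and 19.96 at a summit 1729 bp downstream of the TSS. The folds of HES1 and HEY2 thus lay in the range of HES4 and HEY1 or above it, and both had their lowest fold in MB157R iN1-ICD. NRARP, a feedback inhibitor of NOTCH, had 45.9, 42.2, 46.8 and 52.5 at a summit 2941 bp upstream. NOTCH1 had 35.7, 36.0, 45.4 and 23.7 at a summit 1446 bp downstream. JAG1, a NOTCH ligand, had a weaker site 1811 bp downstream, with folds between 4.20 and 6.33. The promoters of these genes were not all free of RBPJ. Within 1 kb of its TSS, JAG1 had summits in all 4 lists (8.37, 7.77, 6.02 and 5.08), but none that met the rule. NOTCH1 had them in every list except MB157 iEV (7.17, 10.4 and 9.04). NRARP had them in both lists of MB157R (9.41 and 4.99) and HEY2 in MB157R iN1-ICD (3.71). HEYL had an RBPJ summit within 1 kb in MB157 iEV and iSOX2 only (folds 4.72 and 5.18), and none was listed within 1 kb at DTX1 (a regulator of NOTCH), NOTCH2 or RBPJ itself.

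Among 26 genes of NOTCH receptors, ligands and processing, 6 (23.1%) had a constant promoter site, which is close to the 21.2% of all genes. Beside NOTCH3 these included NCSTN and APH1A, which encode components of the γ-secretase complex, ADAM10, the protease that cuts NOTCH before γ-secretase, and POGLUT1, which glycosylates the receptor. ADAM10 had folds of 11.1, 9.02, 16.4 and 11.9, well above the median site in all lists. The NCSTN and POGLUT1 sites lay closer to the TSS of the neighboring genes COPA and TMEM39A. Of 21 genes for RBPJ and its cofactors, 5 (23.8%) had a constant site, namely the co-activators MAML1, MAML2 and KAT2A, the co-repressor TLE1 and RITA1, a regulator of RBPJ export whose site lay closer to DDX54. Their lowest folds were between 3.82 (MAML1) and 6.60 (TLE1). Among genes with an RBPJ summit of MB157 iEV within 1 kb, the counts were 6 of 11 (receptors, ligands and processing) and 5 of 10 (cofactors). For all such genes the count was 4223 of 7578.

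Sites that differed most between the empty-vector cells of the 2 lines were taken from the 510 sites with at least 30 fragments in both lists, after dividing each fold by the median of all constant promoter sites in its list. STIM1, a calcium sensor of the endoplasmic reticulum (chromosome 11, 3854930 to 3855567), was 3.07 times higher in MB157R iEV on this scale. Its folds were 14.9, 25.8, 65.7 and 29.7. FERMT2, an activator of integrins, DMAC2L, a mitochondrial protein, and SESN1, a stress-induced sestrin, were 2.40, 2.20 and 2.17 times higher. In these 4, the fold in MB157R iN1-ICD was lower than in MB157R iEV. So was the median of all constant promoter sites (5.66 against 8.03). The 4 were picked for a high fold in MB157R iEV, so that lower values elsewhere can follow from the choice. At the other end, RBBP7, a histone-binding protein of chromatin complexes (chromosome X, 16870007 to 16871944), was at 0.294 times, with folds of 56.0, 56.4, 23.7 and 11.6. The expected background on chromosome X was 2.26 in MB157 iEV and 1.82 in MB157R iEV. In MB157R iEV this equals the number of fragments expected at any position of the genome, the lowest background of that list. On the same chromosome, EIF2S3 was also lower in MB157R (40.8, 67.9, 26.8 and 24.3). So were the sites near PSMD10 (12.2, 18.6, 5.39 and 6.17), NDUFA1 (7.68, 5.69, 3.93 and 4.37) and EIF1AX (6.73, 13.4, 4.86 and 4.33). RPL39 was nearly the same in both iEV lists (69.2 and 68.0), and the site near NDUFB11 was higher in MB157R iEV (6.73, 6.85, 9.69 and 6.32). Whether the lower values are particular to RBBP7 was not tested. SSR1 (a protein of the endoplasmic reticulum translocon), APPBP2 (which binds the amyloid precursor protein), EPCAM (an epithelial adhesion molecule) and UPF3A (a factor of nonsense-mediated decay) were at 0.304, 0.336, 0.342 and 0.344 times. At APPBP2, EPCAM and UPF3A the fragments at the summit were nearly the same in both iEV lists (33 and 33, 36 and 31, 32 and 34), so that their lower fold in MB157R iEV goes with a higher expected background there. These sites were picked for their difference, which was not tested.

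Of the sites named here, EPCAM and FERMT2 held the RBPJ motif, both in the form with an A in the core, here again in capitals.
EPCAM (chr2:47345248-47345368, plus strand): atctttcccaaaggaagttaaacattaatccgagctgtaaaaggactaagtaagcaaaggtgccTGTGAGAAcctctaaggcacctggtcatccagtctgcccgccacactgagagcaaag
FERMT2 (chr14:52951526-52951555, plus strand, exon): gggggcttgtcCGTGAGAAacggccccagg

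Constant promoter sites sat close to the TSS. The median distance between summit and TSS was 238.5 bp, and it was 370 bp at the other promoter sites. Within 100 bp of the TSS lay 25.1% of the constant sites (23.7 to 26.6) and 14.8% of the others (13.7 to 16.0), and within 250 bp 52.0% (50.4 to 53.6) and 34.6% (33.1 to 36.2). The constant sites formed a peak centered on the TSS, and the other sites spread further into the gene body. Summits lay downstream of the TSS at 53.1% of the constant and 56.9% of the other sites (odds ratio 0.858, 0.782 to 0.940, exact test, adjusted p = 0.00111), a difference that was lost within 5 bins of RBPJ fold (odds ratio 0.923, adjusted p = 0.103). Of the constant sites, 484 (13.3%) lay within 1 kb of TSSs on both strands, compared with 10.4% of the others (odds ratio 1.31, 1.14 to 1.52, exact test, adjusted p = 3.39e-04), but within 5 bins of distance to the TSS this difference did not hold (odds ratio 1.07, adjusted p = 0.396).

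**Figure D3:**
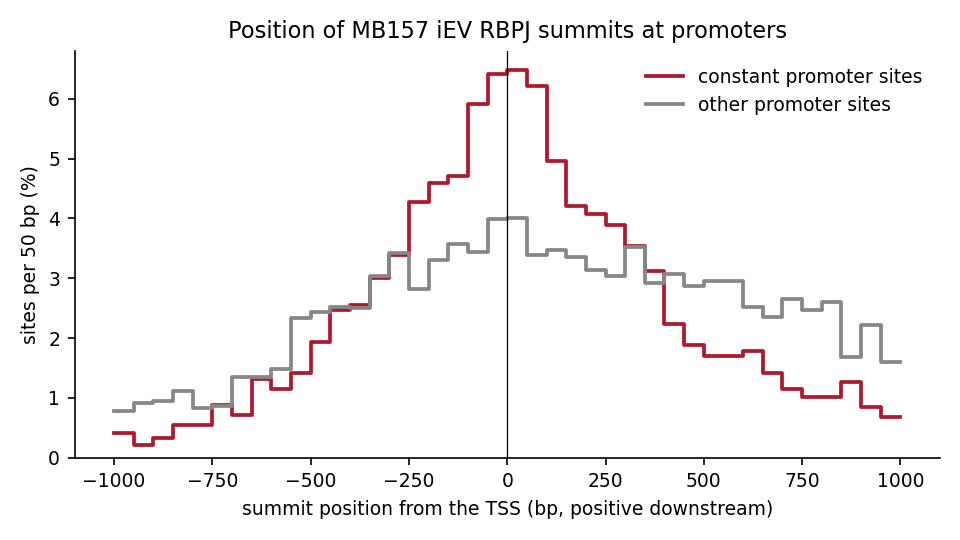
Share of MB157 iEV RBPJ summits (y axis, % of the class per 50 bp) by position from the nearest TSS (x axis, bp, positive downstream) for the 3652 constant and the 3686 other promoter sites. The constant sites reach 6.49% in the 50 bp after the TSS, against 4.02% of the others.

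The sequence around the summits was not used to choose the sites and was compared by Fisher's exact test with Benjamini-Hochberg adjustment. The RBPJ motif lay within 100 bp of 503 constant promoter sites (13.8%, 12.7 to 14.9), 6.78% of the other promoter sites and 19.5% of the constant distal sites, while 13.9% of all RBPJ sites of MB157 iEV had it. It was thus more frequent than at other promoter sites (odds ratio 2.20, 1.87 to 2.57, exact test, adjusted p = 2.09e-22) and less frequent than at constant distal sites (0.660, 0.585 to 0.744, adjusted p = 3.35e-11). At sites of similar RBPJ fold, the first of these odds ratios was smaller (1.33 within 5 bins of fold). For reference, windows of the same length at the 5′ ends of all 19970 annotated protein-coding genes held the motif in 2.41%. The motif was centered on the summit, with a median distance of 19.5 bp, and 57.1% of the motifs lay within 25 bp (52.6 to 61.4). Motifs with their letters reversed, as a control, showed no such difference (1.86% of constant promoter, 1.49% of other promoter and 2.25% of constant distal sites, adjusted p = 0.246 in both exact tests).

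Strong promoter sites mostly had the motif and weak ones mostly did not. Among the 100 constant promoter sites with the highest smallest fold, 75 held it, and 229 of the top 500. Sites with the motif had a median folds of 8.83, 9.48, 12.1 and 8.23 in the 4 lists, whereas those without it had 5.33, 5.60, 7.75 and 5.45. At the remaining constant promoter sites none of the 4 forms lay in the window, which says nothing of other sequences that RBPJ may bind.

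**Figure D4:**
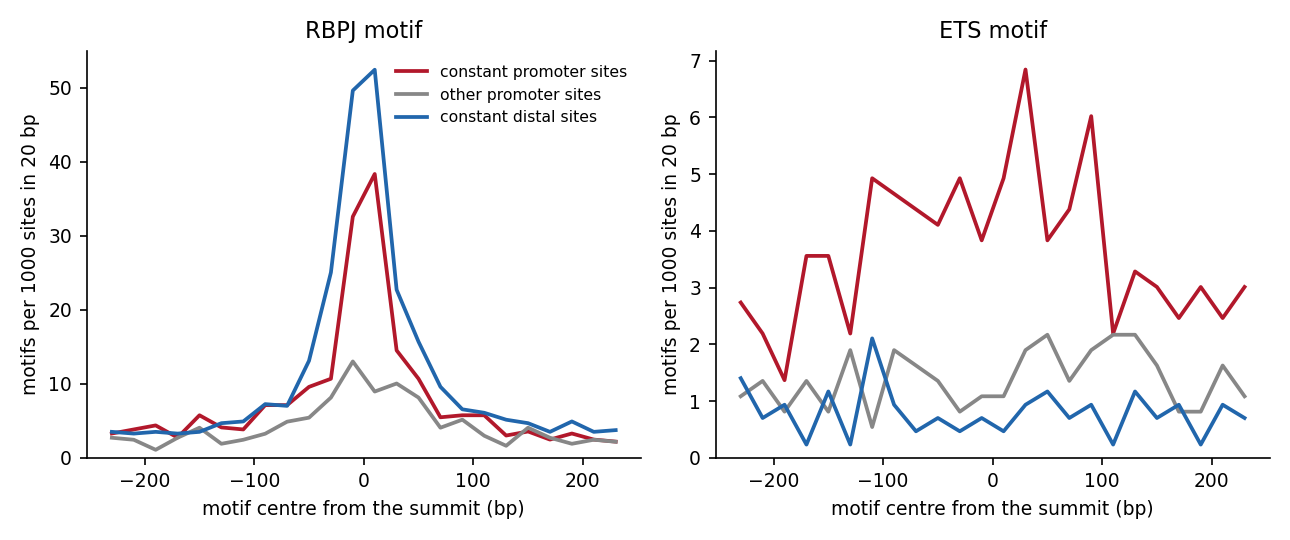
Number of RBPJ motifs (left) and ETS motifs (right) per 1000 sites in 20 bp bins (y axis) by distance of the motif's center from the RBPJ summit of MB157 iEV (x axis, bp). The RBPJ motif peaks at the summit in constant promoter sites (38.3 per 1000 in the bin just downstream) and in constant distal sites (52.4), and less so in other promoter sites (at most 13.0), whereas the ETS motif is spread around the summits of constant promoter sites without a central peak.

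Motifs of general promoter factors were more frequent at constant promoter sites than in either comparison class. CCGGAAGT, the consensus of ETS factors, occurred at 4.38% of the constant promoter sites, 1.41% of the other promoter sites (odds ratio 3.20, 2.33 to 4.39, exact test, adjusted p = 6.40e-14) and 0.702% of the constant distal sites (6.48, 4.38 to 9.60, adjusted p = 4.25e-27). GCATGCGC, the core of NRF1, a regulator of mitochondrial genes, occurred at 3.61%, 1.44% and 1.15%. GGGCGGGG, the GC box of SP1, occurred at 17.8%, 12.3% and 8.82%. All of these differences passed Fisher's exact test against both classes (adjusted p at most 6.52e-09). The CCAAT box of NFY (CCAAT, then C or G, then A or G, with 8.98%, 6.70% and 5.73%), the cyclic AMP response element TGACGTCA (1.64%, 0.705% and 0.702%), AGATGGCG of YY1 (2.16%, 1.14% and 1.03%), TCTCGCGA of BANP and ZBTB33 (0.986%, 0.407% and 0.234%) and ACTACAA of ZNF143 (1.64%, 0.922% and 1.05%) also passed against both, with adjusted p between 7.55e-08 and 0.0285. Against other promoter sites, the calls for NFY and BANP were lost within bins of distance to the TSS (odds ratios 1.15 and 1.79), and several of the calls for these 5 rarer motifs were lost in other alternatives. In all protein-coding promoters, the shares were 4.52% for ETS, 2.97% for NRF1, 22.6% for SP1 and 14.3% for NFY, so the constant sites did not exceed them except for NRF1. The windows of the genes are centered on the TSS and those of the sites on the summit.

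The ZNF143 element joined to the letters TCCCA, that is ACTACAA, any base and TCCCA, was rare but followed the same direction. It occurred at 0.581% of all protein-coding promoters, 19 constant promoter sites (0.520%), 4 other promoter sites (odds ratio 4.81, 1.64 to 14.2, exact test, adjusted p = 0.00214) and 6 constant distal sites (3.72, 1.48 to 9.32, adjusted p = 0.00523). These 19 sites were not strong, with a median fold of 5.10 in MB157 iEV, and 1 of them also had an RBPJ motif. The composite contains TGGGA on the reverse strand, which is part of the RBPJ motif, and its letters also hold the ZNF143 motif counted above. Those of DCAKD, a kinase-domain protein, and AHCYL2, a relative of adenosylhomocysteinase, were among those with the highest smallest fold, a choice made after the values were seen, and are shown on the strand that reads TGGGA first.
DCAKD (chr17:45061009-45061038, minus strand, exon): ctggcatgaTGGGAGTTGTAGTtcgatgct
AHCYL2 (chr7:129224743-129224879, minus strand): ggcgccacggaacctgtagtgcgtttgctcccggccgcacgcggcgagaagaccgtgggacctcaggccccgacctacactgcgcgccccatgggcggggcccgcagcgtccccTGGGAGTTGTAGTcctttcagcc

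Motifs typical of enhancers set the constant promoter sites apart from the constant distal ones. TGACTCA or TGAGTCA, the AP-1 motif, lay at 2.08% of the constant promoter sites and at 11.5% of the constant distal sites (odds ratio 0.163, 0.127 to 0.208, exact test, adjusted p = 4.09e-65). The SOX motif, AACAAAG or AACAATG, lay at 2.99% and 7.35% (0.388, 0.311 to 0.485, exact test, adjusted p = 8.20e-18). Neither was called against other promoter sites, with 1.47% for AP-1 (1.43, 1.01 to 2.03, exact test, adjusted p = 0.0585) and 2.85% for SOX (1.05, 0.799 to 1.38, adjusted p = 0.782). Over all RBPJ sites of MB157 iEV the shares were 4.74% for AP-1 and 6.75% for SOX. In all protein-coding promoters they were 2.62% and 4.20%, above those of the constant promoter sites. The AP-1 difference from other promoter sites was called in several alternatives, among them the one with all transcript starts (odds ratio 1.41, exact test, adjusted p = 0.0202). CACGTG, the E-box, was more frequent than at distal sites (6.71% and 4.45%, odds ratio 1.55, 1.27 to 1.88, exact test, adjusted p = 2.72e-05). The median G+C share within 100 bp was 65.2% at constant promoter, 63.2% at other promoter and 59.2% at constant distal sites.

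**Figure D5:**
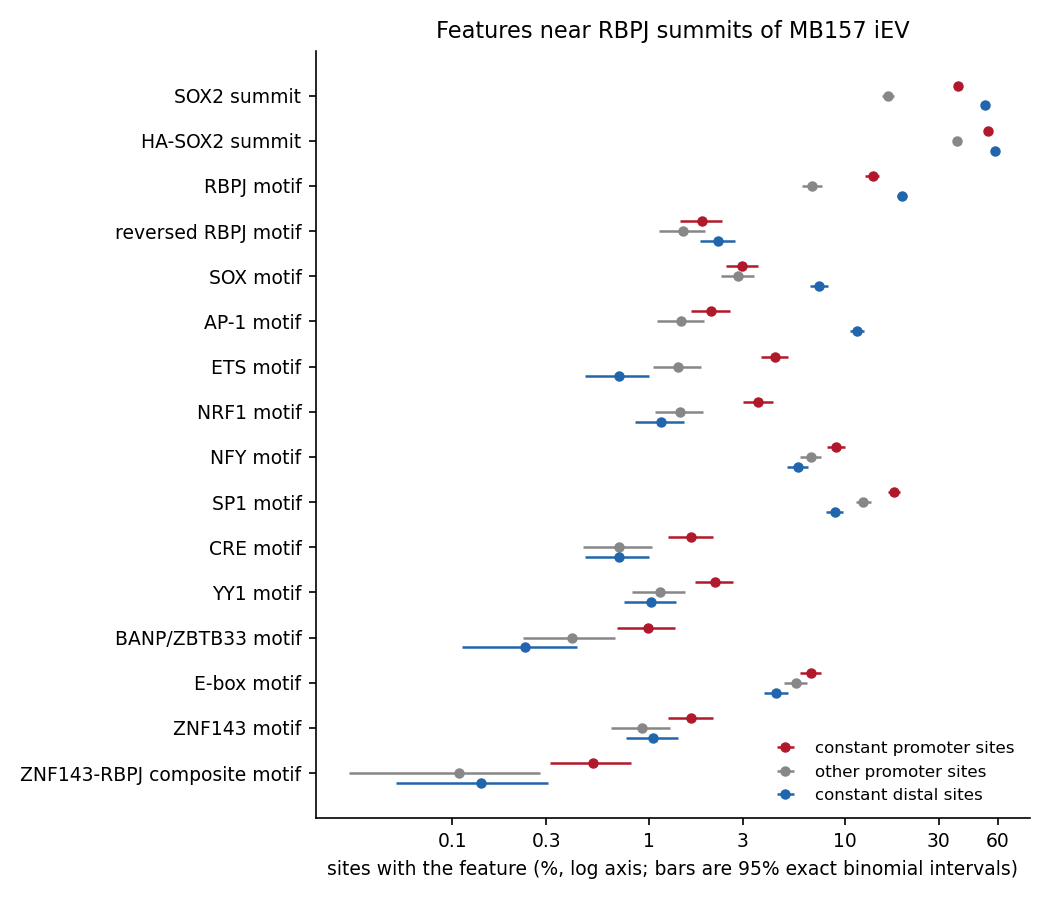
Share of sites with a SOX2 or HA-SOX2 summit less than 500 bp away or with a motif within 100 bp of the summit (x axis, %, log scale) for 3652 constant promoter, 3686 other promoter and 4273 constant distal RBPJ sites of MB157 iEV. Points are shares and bars are 95% exact binomial intervals; for the ETS motif they are 4.38%, 1.41% and 0.702%, and for the AP-1 motif 2.08%, 1.47% and 11.5%.

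SOX2 was found near many of the constant promoter sites. In MB157R iEV, a SOX2 summit lay less than 500 bp from 1377 of them (37.7%), whereas this was the case at 16.5% of the other promoter sites (odds ratio 3.05, 2.74 to 3.41, exact test, adjusted p = 2.09e-93) and 51.7% of the constant distal sites (0.565, 0.516 to 0.618, adjusted p = 8.13e-36). Among all RBPJ sites of MB157 iEV the share was 22.6%. Constant sites are called for RBPJ in MB157R iEV by the rule and other promoter sites need not be. When only the 1774 other promoter sites that were called for RBPJ in MB157R iEV were used, 21.8% had SOX2 nearby, which gave 2.17 as the odds ratio (1.90 to 2.47, exact test, adjusted p = 1.35e-32). The share with SOX2 was 27.3% of the sites with an RBPJ fold of 4 to 6 in MB157R iEV and 44.1% of those with 10 to 20. The SOX2 and RBPJ lists of MB157R iEV were called against the same input.

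HA-SOX2, made from the vector in MB157 iSOX2, lay near 1956 constant promoter sites (53.6%), compared with 37.2% of the other promoter sites, with an odds ratio of 1.95 (1.77 to 2.14, exact test, adjusted p = 7.45e-45). With the 2175 other promoter sites that were called for RBPJ in MB157 iSOX2, this was 41.1% and the odds ratio was 1.66 (1.49 to 1.84). Among all RBPJ sites of MB157 iEV the share was 45.8%. At constant distal sites it was 58.0% (odds ratio 0.835, 0.764 to 0.913, exact test, adjusted p = 7.83e-05). Within 5 bins of G+C share, however, the odds ratio was 1.10, on the other side of 1 and not called. Both SOX2 lists marked 1008 of the constant promoter sites (27.6%), the SOX2 list alone 369, the HA-SOX2 list alone 948 and neither of them 1327 (36.3%). In these 4 classes the median RBPJ fold of MB157 iEV was 5.61, 5.63, 5.61 and 5.49, so that in this list it hardly varied between them. In MB157 iSOX2 the medians were 6.02, 5.60, 5.96 and 5.77. In MB157R iEV, the cells of the SOX2 list, they were 8.43, 9.52, 7.62 and 7.60, higher in both classes with SOX2. The median ratio of the folds in MB157R iEV and MB157 iEV was 1.483, 1.603, 1.341 and 1.355. The RBPJ motif was present at 9.23%, 13.0%, 14.2% and 17.1% of the sites, and the SOX motif at 5.66%, 3.52%, 2.22% and 1.36%.

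The SOX2 peaks at these promoters were weaker than SOX2 peaks as a whole, and few held a SOX motif, as was also the case at other promoter sites. Their median SOX2 fold was 4.39, compared with 5.32 over all SOX2 peaks of MB157R iEV, and the median HA-SOX2 fold was 4.32, compared with 5.99 over all HA-SOX2 peaks. RBPJ and SOX2 summits were a median of 143 bp apart. Within 100 bp of their own summits, 10.8% of the SOX2 peaks near constant promoter sites held the SOX motif (9.20 to 12.6), 12.3% of those near other promoter sites (9.79 to 15.2), 17.2% of those near constant distal sites (15.6 to 18.8) and 18.8% of all SOX2 peaks. For HA-SOX2 the shares were 9.58%, 10.9%, 16.9% and 30.7%. In MB157R iN1-ICD, whose SOX2 list has 323 peaks, SOX2 lay near 10 constant promoter sites, 1 other promoter site and 58 constant distal sites. The HA control of MB157 iEV, with 77 peaks from 1 library, had a summit near 3 of the constant promoter sites, those of BCAR3, POLR3E and GSTA4. The odds ratios for SOX2 and HA-SOX2 against other promoter sites were 3.06 and 1.95 without sites near the HA control.

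MTF2, a partner of Polycomb repressive complex 2 (chromosome 1, 93079021 to 93079782, summit 40 bp downstream of the TSS), had the highest SOX2 fold of all constant promoters. Its SOX2 fold was 62.9 in MB157R iEV, compared with 13.7 in the iN1-ICD cells, and its HA-SOX2 fold was 36.5. RBPJ there was moderate, with folds of 5.93, 5.47, 14.4 and 6.09. PLPP2, a lipid phosphatase, followed with a SOX2 fold of 42.7, an HA-SOX2 fold of 37.9 and RBPJ folds between 6.14 and 7.87. CCDC159, C15orf62 and ISL2, a LIM homeodomain factor, had SOX2 folds of 28.2, 26.6 and 26.3. Of the sites with the highest HA-SOX2 fold, NWD1 (43.1) and CYP4B1, a cytochrome P450 (36.1), also had SOX2 in MB157R iEV, whereas PARP9, an ADP-ribosyltransferase (37.1), had no SOX2 summit nearby there. The highest SOX2 and the highest RBPJ folds lay at different promoters. Of the 10 strongest RBPJ promoters, only GTF2H4 and RPL39 had SOX2 of MB157R iEV nearby, with folds of 6.53 and 3.72. HA-SOX2 lay near both (3.99 and 4.59) and also near CCDC102B (3.35) and IL1RAP (3.08). ISL2 was the one among these 8 SOX2-rich promoters with a SOX motif within 100 bp of the RBPJ summit, in capitals below.
ISL2 (chr15:76336410-76336555, minus strand): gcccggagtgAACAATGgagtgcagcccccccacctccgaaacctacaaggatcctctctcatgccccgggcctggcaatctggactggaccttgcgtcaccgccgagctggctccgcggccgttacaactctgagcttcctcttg

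Several groups of genes that most cells use had a constant site more often than genes as a whole, by counts that were not tested. Of 104 genes for RNA polymerases, general factors and Mediator, 41 (39.4%) had a constant site, beside 21.2% of all protein-coding genes. The shares were 39.6% for spliceosome and SR proteins (19 of 48), 39.5% for DNA replication and mitosis (17 of 43), 38.5% for mitochondrial ribosomal proteins (30 of 78), 34.5% for translation initiation factors (19 of 55), 32.4% for aminoacyl-tRNA synthetases (12 of 37), 32.1% for oxidative phosphorylation (27 of 84), and 30.4% for cytosolic ribosomal proteins (24 of 79). Proteasome subunits, with 23.1% (9 of 39), were close to all genes, and zinc finger genes named ZNF had 29.1% (148 of 508). Among the genes with an RBPJ summit in MB157 iEV, however, 4223 of all 7578 had a constant site. Near or below that share were cytosolic ribosomal (24 of 43), proteasome (9 of 17), ZNF (148 of 267) and aminoacyl-tRNA synthetase genes (12 of 24). Somewhat above it were translation initiation (19 of 32), oxidative phosphorylation (27 of 44) and mitochondrial ribosomal genes (30 of 47). Genes of polymerases and general factors (41 of 61), the spliceosome (19 of 28) and replication (17 of 24) were highest. Genes of other tissues were rare, with 1 of 22 liver, blood and muscle genes (CD14, lowest fold 8.38) and 1 of 400 olfactory receptors (OR52N2). Clustered histone genes stood apart. An RBPJ summit lay within 1 kb of the TSS of 43 (MB157 iEV), 55 (iSOX2), 46 (MB157R iEV) and 22 (iN1-ICD) of the 73 histone genes, yet only 7 had a constant site (9.59%). The histone genes lie in clusters of related genes, and whether reads could be told apart between them was not tested. In MB157R iEV, RBPJ was listed at 11196 genes.

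Smaller groups are set beside the same 21.2% of all genes and the same 4223 of 7578 genes with an RBPJ summit in MB157 iEV. Among genes with such a summit, constant sites were found at 6 of 11 AP-1 family genes and 6 of 9 epithelial and mammary genes. They were found at 4 of 7 EMT and mesenchymal genes and 3 of 8 SOX genes. Of 18 AP-1 family genes 6 (33.3%) had a constant site, led by JUN with folds of 9.36, 18.4, 20.8 and 9.31. Of 21 epithelial and mammary genes 6 (28.6%) had one. CLDN7, a claudin of tight junctions, had folds of 27.7, 20.7, 21.9 and 17.02, and GRHL2, a transcription factor of epithelial cells (chromosome 8), had 17.1, 13.6, 6.62 and 5.81. GRHL2, on chromosome 8 with its lower background in MB157R iEV, and EPCAM had their lower values in both lists of MB157R. GATA3, a luminal transcription factor, had its higher values there (3.72, 3.71, 7.80 and 5.08), while CLDN7, FOXA1 (6.09 to 7.68) and OCLN (14.9 to 26.7) showed no such order by line. The folds of this paragraph were not divided by the median of their list, which was 5.58, 5.89, 8.03 and 5.66. An order by line can change on that scale. Of 18 EMT and mesenchymal genes 4 (22.2%) had a constant site, which is close to that of all genes. VIM, the mesenchymal filament vimentin, had 12.1, 12.3, 31.2 and 20.3, with the higher values in MB157R, whereas CDH2, the N-cadherin gene, had 5.76, 6.31, 8.50 and 5.08 and TWIST1, a transcription factor of EMT, had 6.53, 5.62, 7.84 and 4.45. Of 19 SOX genes 3 (15.8%) had one, namely SOX4, SOX9 and SOX12. At SOX4 the summit held 12 fragments in MB157 iEV and 304 in MB157R iEV, although the fold was 3.46 and 7.54, since the fold is relative to the input at the same place. Constant promoters were found on every chromosome, from 8.73% of the genes of chromosome 22 to 26.2% of those of chromosome 7. On chromosome 22, an RBPJ summit lay at 80 of 447 genes in MB157 iEV and at 227 in MB157R iEV.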

How the data were processed

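Reads had been trimmed, mapped to hg38 by the authors with BWA and given to MACS2, which made narrow peaks from the pooled libraries of a group and its pooled inputs. Of the 34 libraries, 22 were immunoprecipitations and 12 were inputs, and counts for single libraries were not used. For each peak, a deposited list has a score (not used), the authors' fold enrichment, which is a ratio, a deposited −log10 p, a deposited −log10 q, and the start, end and summit. From fold and −log10 p together, whole numbers of fragments were found for 98.7% of the peaks or more in every list (tolerance 0.02 in −log10 p). This step and the tests were tested on simulated data. Both tools ran within nf-core/chip-seq 2.0.0, and their own versions were not given in the sources used here.

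Genes came from GENCODE 44, and a TSS was the 5′ end of a protein-coding gene. Constant promoter sites were set against the 3686 other promoter and the 4273 constant distal RBPJ sites of MB157 iEV by Fisher's exact test (two-sided), with Woolf 95% intervals and Benjamini-Hochberg adjustment at 0.05 over 4 SOX2, 28 motif and 2 position comparisons. Where sites were compared within 5 bins, the Mantel-Haenszel test was used. Sites were named if they belonged to listed NOTCH genes or gene groups, were among the 10 with the highest smallest fold, the 5 that differed most in either direction between the iEV lists, the 5 with the highest SOX2 or HA-SOX2 fold or those of the sparse SOX2 and HA lists, or lay at a limit of the rule. The members, gene groups and motifs were chosen with earlier results of these data known. The bins of G+C and of distance to the TSS, and the limit to other sites bound in the same cells, were added after the values were seen. The work was done in Python 3.11.15 with scipy 1.17.1, statsmodels 0.14.6, pysam 0.24.0, pandas 2.3.3, numpy 2.4.6 and matplotlib 3.10.9. Some sites that these rules select are not reported here.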

Additional observations from a re-analysis of the deposited data

How the results depend on the processing

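No paired analysis was possible because peaks had been called on pooled libraries, so that no replicate has values of its own and none could be left out. Each list carries 1 depth, and a site missing from a shallow list may have been below its threshold. The number of constant promoter sites was 1287 with summits within 100 bp and 1927 with a −log10 q of at least 5 in every list, and within 1.5 times of the main number in the other 12 of 14 alternatives. The odds ratios for SOX2 kept their direction and side of the threshold in all alternatives. For HA-SOX2 against distal sites the call was lost with summits within 1000 bp (0.967) and promoters within 0.5 kb (0.984), and the odds ratio was 1.10 in bins of G+C. Those for the RBPJ, ETS, NRF1 and SP1 motifs kept their calls against both classes.

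Against other promoter sites, the following calls were lost. With summits within 100 bp, these were YY1 (1.36), the composite (2.52) and promoters on opposite strands (1.14), with 250 bp YY1 (1.43), and with 1000 bp NFY (1.197), YY1 (1.51) and BANP (1.89). With a −log10 q of at least 5, these were the cyclic AMP response element (1.21), YY1 (1.24), BANP (1.37), ZNF143 (1.73) and the composite (2.22). With promoters within 0.5 kb, NFY (1.21) and the downstream position (0.975) were lost, and without asking for MB157R iN1-ICD BANP (1.89) and ZNF143 (1.61). With motifs within 50 bp, NFY (1.15), the cyclic AMP response element (1.71) and ZNF143 (1.86) were lost, and the composite gave no value because no other promoter site held it. In bins of RBPJ fold the downstream position was lost (0.923), and in bins of distance to the TSS NFY (1.15), BANP (1.79) and opposite strands (1.07).

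Calls were gained for AP-1 with summits within 1000 bp (1.60), overlapping peaks (1.67), a −log10 q of at least 5 (1.85), lists of equal length (1.71), promoters within 5 kb (1.38), all transcript starts (1.41), no requirement for MB157R iEV (1.47), bins of fold (1.53) and bins of G+C (1.58). They were gained for the E-box with 250 bp (1.25), 5 kb (1.30), all transcript starts (1.26), no requirement for MB157R iN1-ICD (1.26) and a 50 bp window (1.38), and for the reversed RBPJ motif with lists of equal length (1.47). Against distal sites, calls were lost with 100 bp for the E-box (1.36), ZNF143 (1.79) and the composite (3.90), with a −log10 q of at least 5 for the composite (3.45), without asking for MB157R iN1-ICD for ZNF143 (1.37), with 1 site per gene for ZNF143 (1.501), and with a 50 bp window for ZNF143 (1.52) and the composite (4.68). The cause of these changes was not tested. HEY1, CCND1 and NOTCH3 each had 2 sites with promoters within 5 kb.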
